A study of Homo sapiens with 5 samples.

Results

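The metalloproteinases, their ADAM and ADAMTS relatives and the tissue inhibitors of metalloproteinases (TIMPs) were followed in LX-2, a human stellate cell line from liver, after knockdown of LIX1L. The set was a list of 35 gene symbols, and all 35 were found among the 19936 genes of the deposited files. It holds 10 secreted matrix metalloproteinases (MMPs), 5 membrane MMPs, 4 TIMPs, 7 ADAMs and 9 ADAMTSs. Cells given LIX1L siRNA gave 3 libraries (siLIX1L 1, 2 and 3), and cells given control siRNA gave 2 (control 1 and 2). All 5 libraries came from transfected cells harvested at 48 h, so both groups carry an siRNA, and LX-2 is 1 line. Nothing in the labels says that replicate libraries were grown as separate cultures; p-values therefore speak of the spread among 5 libraries, part of which may be technical. The comparison asks how the transcripts of matrix-cutting enzymes and their inhibitors differed when LIX1L was reduced.

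These enzymes are zinc proteases that cut proteins outside the cell or at its surface. Secreted MMPs degrade collagens and other matrix proteins, membrane MMPs do so at the cell surface and activate other MMPs, ADAMs shed growth factors and receptors from the membrane, and ADAMTSs cut proteoglycans and microfibril or clotting proteins. TIMPs bind the active site and block it. In injured liver, activated stellate cells make collagen together with several MMPs and TIMPs, and the balance between enzymes and inhibitors is studied as part of how scar is laid down and resolved.

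Levels are given as RPM, reads per 1000000 reads counted over genes, with 14856104 to 17811940 reads in the siLIX1L libraries and 14877647 and 18294056 in control 1 and 2. LIX1L itself had 6.60, 7.08 and 3.65 RPM in siLIX1L 1, 2 and 3, against 26.4 and 35.5 RPM in control 1 and 2, and it fell 5.36-fold (limma difference -0.87, SE 0.11, adjusted p = 0.0384). Of 19 markers of stellate cells and myofibroblasts, 16 had at least 1 RPM in every library, while DES and GFAP stayed below 1 RPM and LRAT, which marks retinoid-storing quiescent cells, had 0 reads in every library, which allows up to 0.202 RPM in the shallowest. The summed level of these markers was 7626 to 8101 RPM in the siLIX1L libraries and 4642 and 12264 RPM in control 1 and 2. ACTA2, the smooth muscle actin of activated stellate cells, had 8.89, 8.41 and 14.8 RPM in siLIX1L 1, 2 and 3, against 39.0 and 35.4 RPM in control 1 and 2. COL1A2, DCN, LUM, PDGFRA and THY1 were also below both controls in every siLIX1L library, as were 21.8% of all genes tested by edgeR. COL1A1, COL3A1, COL5A1, SPARC and RGS5 lay between the 2 controls in every siLIX1L library, and the other markers of this list overlapped the controls. Hepatocyte markers summed to at most 4.38 RPM in the siLIX1L libraries and 7.43 RPM in the controls. The 4 cholangiocyte markers summed to 105, 103 and 53.9 RPM in siLIX1L 1, 2 and 3, against 46.4 and 31.4 RPM in control 1 and 2, almost all of it SOX9, with KRT19 and EPCAM below 1 RPM in every library. Endothelial markers summed to 3.30 to 7.15 RPM in the siLIX1L libraries and 5.38 and 2.41 RPM in control 1 and 2. The part of these marker differences in the results was not tested. SiLIX1L 1 and 2 were close to each other (biological coefficient of variation 6.31%), siLIX1L 3 stood further off (22.2 and 22.3% from them), and the 2 controls differed more (34.9%). Control 1 was closer to each siLIX1L library (30.9, 32.3 and 31.45%) than to control 2, and control 2 was 38.3 to 41.1% from them. Mitochondrially encoded genes took 1.08 to 1.29% of reads in the siLIX1L libraries and 2.24 and 3.35% in control 1 and 2, and the part of this difference in the results was not tested. In bulk RNA, fewer cells that express a gene and less of its RNA per cell cannot be told apart.

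Of the 35 genes, 30 reached a mean of 0.5 RPM in at least 1 group. MMP7, MMP10, MMP12, MMP13 and TIMP4 did not, with 0 to 7 reads in any siLIX1L library and 0 to 8 in any control, and no fold change is given for them. MMP7 is matrilysin, MMP12 a macrophage elastase and MMP13 a collagenase, and each was at the edge of detection in these cells. The test across all genes, limma on log2(FPKM + 1), kept genes with at least 1 FPKM in 2 libraries and covered 13 of the 35. FPKM had been divided by the gene's whole span with introns, so long genes such as ADAM12 and ADAMTS12 stayed under this minimum at 29.9 and 305 RPM in siLIX1L cells, and 22 genes were left untested in limma. EdgeR on the reads recovered from FPKM covered the same 30 genes that reached 0.5 RPM, among them 17 that limma did not test.

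By limma 1 of the 13 genes tested passed an adjusted p of 0.05, against 1.87% of all 6464 genes tested: MMP19, which fell. Over all genes tested, limma called 0.743% higher and 1.13% lower. By edgeR 2 of 30 passed, against 1.44% of 13026 genes: TIMP3 was higher, against 0.560% of all genes, and MMP19 lower, against 0.883%. DESeq2 called 9 of 35, with TIMP3, ADAM19 and ADAMTS12 higher and MMP2, MMP9, MMP17, MMP19, ADAMTS4 and ADAMTS10 lower, against 9.90% of 16905 genes (4.99% higher and 4.91% lower). Both totals count genes with a p but no adjusted p, which could not be called. MMP7, MMP10, MMP12, MMP13 and TIMP4 are among them, so these shares are lower than among genes that could be called. Limma on log2(RPM + 0.5) called none of the 30 it tested, against 0.916% of 13096 genes. Unadjusted, 14 of these 30 had a p under 0.05, against 3296 of the 13096 genes. In the main limma fit 5 of 13 had an unadjusted p under 0.05, against 1785 of 6464 genes. In edgeR 15 of 30 did, against 3395 of 13026. The unadjusted counts given by class below belong beside these. The siLIX1L libraries lay entirely above both controls for 9 of the 30 genes and entirely below for 10, against 22.2% and 21.8% of all genes tested by edgeR (44.1% in either direction), and 11 overlapped. The median edgeR log2 fold change of the 30 genes was 0.11, with 15 positive and 15 negative, beside -0.04 over all genes tested.

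**Figure D1:**
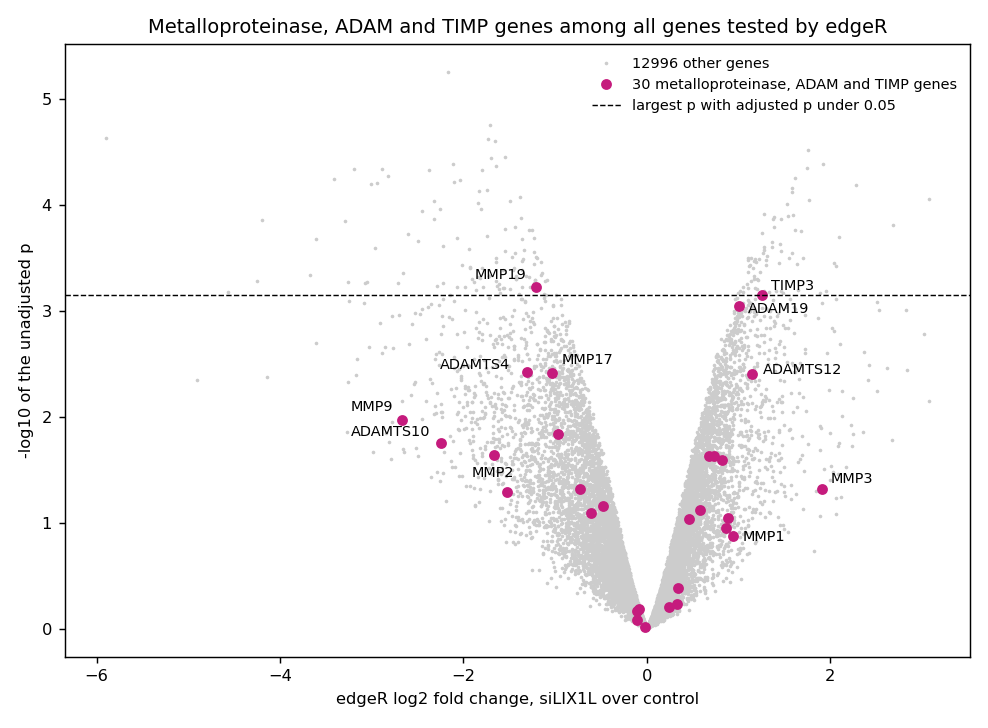
Each point is a gene tested by edgeR, with its log2 fold change (siLIX1L over control) on the horizontal axis and -log10 of its unadjusted p on the vertical axis; the 30 metalloproteinase, ADAM and TIMP genes are coloured and all other genes grey. MMP19 and TIMP3 lie on or above the dashed line of the largest p with an adjusted p under 0.05, and MMP9 at -2.67 and MMP3 at 1.91 have larger fold changes but lie below it.

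Between genes, levels were compared per kilobase of the longest coding transcript, in RPM per kilobase. In siLIX1L cells the highest were MMP1 at 399.8 ± 70.9, TIMP1 at 296 ± 29.8, ADAM9 at 173 ± 21.4, TIMP2 at 170.1 ± 40.0 and TIMP3 at 114 ± 20.9 RPM per kilobase (SD, n = 3). In control cells they were TIMP1 at 481 ± 221, MMP1 at 211 ± 194, TIMP2 at 181 ± 19.7, ADAM9 at 124 ± 28.3 and MMP2 at 73.1 ± 47.8 RPM per kilobase (SD, n = 2). The first 4 places were thus held by the same 4 genes in both groups, though in another order. MMP1 led in siLIX1L cells by more than an SD, and ADAM9 and TIMP2 did not differ beyond their spread there. In control cells the means of TIMP1 and MMP1 lay further apart than either SD (221 and 194), but control 1 alone had the reverse order. TIMP3 held the fifth place in siLIX1L cells and the seventh in control cells, where ADAM15 at 47.5 ± 1.91 RPM per kilobase lay level with it. The order of the control means rests on control 2: in control 1 alone MMP1 at 347.5 RPM per kilobase was above TIMP1 at 324.6, and MMP2 at 39.3 was below TIMP3 at 51.6 and ADAM15 at 46.1.

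**Figure D2:**
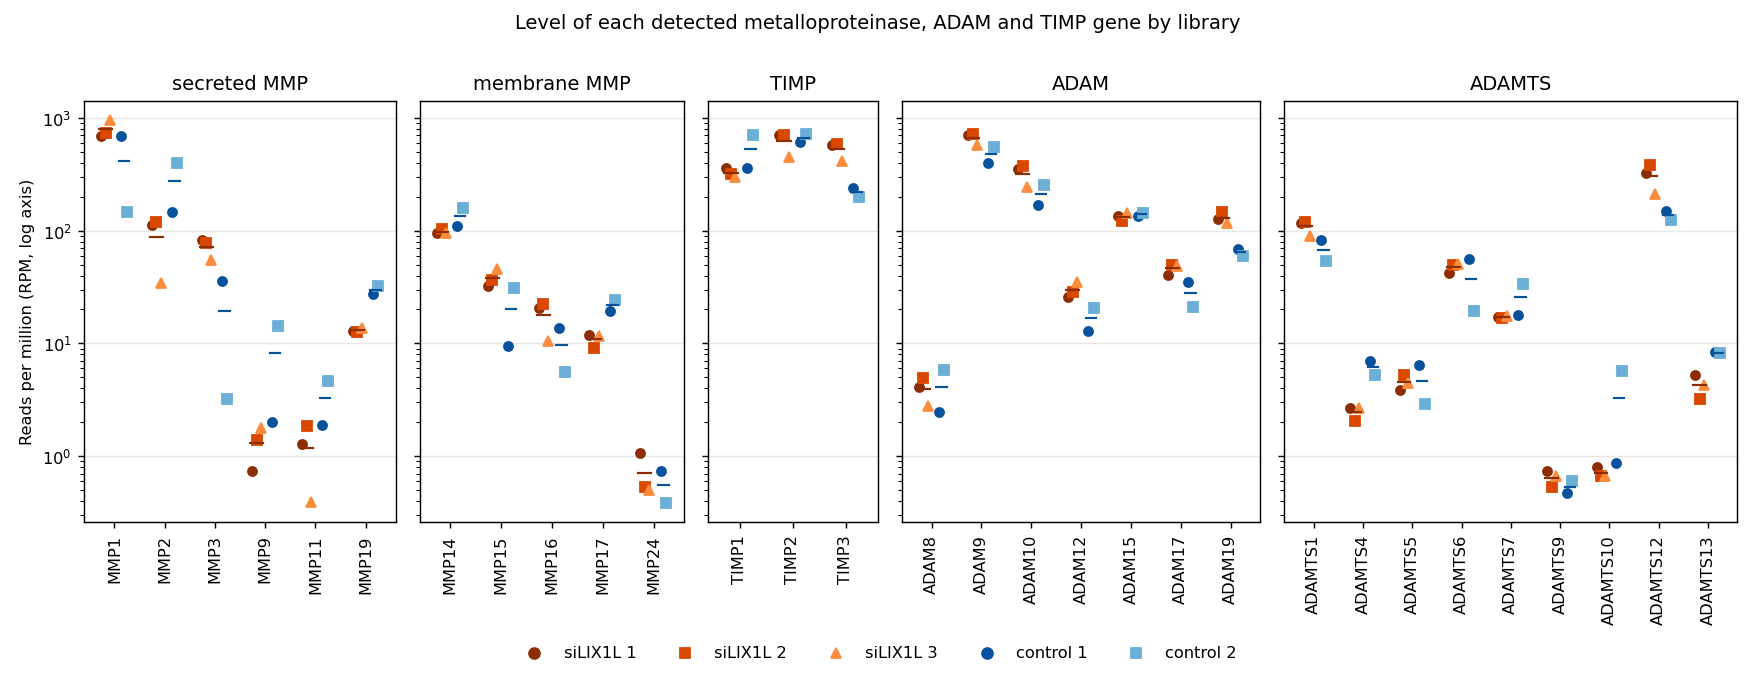
RPM of the 30 genes with a mean of at least 0.5 RPM in either group, on a log axis, by class; for each gene the siLIX1L libraries are drawn left of the controls, points are single libraries and short lines are group means. MMP19, TIMP3, ADAM19 and ADAMTS12 separate the groups with both controls close together, whereas MMP1, MMP3, MMP9 and ADAMTS10 spread widely between control 1 and control 2.

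Of the secreted MMPs, 1 of the 4 tested by limma and 1 of the 6 tested by edgeR passed, with 3 and 4 at an unadjusted p under 0.05, and DESeq2 called 3, all lower. MMP19, which cuts basement membrane components, fell in all 3 siLIX1L libraries. MMP19 (ENSG00000123342, chromosome 12, 55835433 to 55842966, minus strand, GRCh38) had 12.9, 12.6 and 13.6 RPM in siLIX1L 1, 2 and 3, against 27.3 and 32.2 RPM in control 1 and 2. The 3 siLIX1L values lay within a narrow range and well below both controls, a 2.28-fold lower mean. Limma gave a difference of -0.85 on log2(FPKM + 1) (SE 0.13, limma adjusted p = 0.0384), and edgeR gave a log2 fold change of -1.20 (adjusted p = 0.0484). The call was lost in limma without siLIX1L 1 (adjusted p = 0.167), siLIX1L 2 (0.231) or siLIX1L 3 (0.0776), with siLIX1L 1 and 2 averaged (0.191), without a minimum level (0.103) and on log2(RPM + 0.5) (0.0513). The edgeR call was lost without control 2 (adjusted p = 0.0515), siLIX1L 1 (0.189), siLIX1L 2 (0.261) or siLIX1L 3 (0.0856). Over 18 alternatives, edgeR and DESeq2 among them, the adjusted p ran from 0.000246 to 0.261, always in the same direction. The pseudogene TMEM198B overlaps MMP19 on the other strand. Whether the library kit kept strand is not stated, so reads of the 2 cannot be told apart where they overlap.

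MMP1, the interstitial collagenase that opens fibrillar collagen, and MMP3, stromelysin, which activates MMP1, are neighbours in a cluster of 6 of these MMP genes on chromosome 11. MMP1 (102789920 to 102798160) had 685, 732 and 947 RPM in siLIX1L 1, 2 and 3, against 685 and 145 RPM in control 1 and 2. MMP3 (102835801 to 102843803) had 82.5, 78.4 and 55.2 RPM in siLIX1L 1, 2 and 3, against 35.9 and 3.23 RPM in control 1 and 2. Both genes were lowest in control 2; for MMP1 the value of control 1 was that of siLIX1L 1 to 3 digits, and for MMP3 all siLIX1L libraries lay above both controls. The mean of MMP1 was 1.15-fold that of control 1 but 5.42-fold that of control 2, and the mean of MMP3 2.01-fold and 22.3-fold. Neither passed, at a limma difference of 1.27 (SE 0.59, adjusted p = 0.217) for MMP1 and 1.83 (SE 0.54, adjusted p = 0.0982) for MMP3. Without control 1 both passed in limma (adjusted p = 0.0142 and 0.0134) and without control 2 neither did (0.612 and 0.0990). The pseudogene WTAPP1 overlaps both on the other strand.

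The gelatinases MMP2 and MMP9, which cut denatured collagen and basement membrane collagen, had the opposite order, with their highest values in control 2. MMP2 (chromosome 16, 55389700 to 55506691) had 111, 119.5 and 34.1 RPM in siLIX1L 1, 2 and 3, against 147 and 400.1 RPM in control 1 and 2. MMP9 (chromosome 20, 46008908 to 46016561) had 0.740, 1.39 and 1.80 RPM in siLIX1L 1, 2 and 3, against 2.02 and 14.4 RPM in control 1 and 2. For both the siLIX1L libraries lay below both controls, but control 2 set most of the distance: MMP2 was 1.66-fold lower than control 1 and 4.53-fold lower than control 2, and MMP9 1.54-fold and 10.98-fold lower. The limma difference of MMP2 was -0.88 (SE 0.32, adjusted p = 0.148), with adjusted p = 0.0353 without control 1 and 0.400 without control 2; MMP9, under the FPKM minimum, had an edgeR log2 fold change of -2.67 (adjusted p = 0.0977), and -0.58 (adjusted p = 0.529) without control 2. DESeq2 called both lower (adjusted p = 0.0241 for MMP2 and 0.00666 for MMP9), and over their alternatives the adjusted p ran from 0.0241 to 0.497 for MMP2 and from 0.00666 to 0.529 for MMP9.

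MMP9 is also a product of leukocytes, and of 6 leukocyte markers CD14 alone had at least 1 RPM in every library. Their summed level was 5.89 to 9.73 RPM in the siLIX1L libraries and 10.6 and 38.0 RPM in control 1 and 2, with CD14 at 35.7 RPM in control 2. PTPRC, which defines leukocytes, had 0.281 to 0.662 RPM in the siLIX1L libraries and 1.21 and 0.601 RPM in control 1 and 2, and CD68 had 0 reads in every siLIX1L library and in control 2. CD163 had at most 0.0673 RPM in the siLIX1L libraries and 0.134 RPM in control 1. CSF1R had 0.202 to 0.927 RPM in the siLIX1L libraries and 0.134 and 1.26 RPM in control 1 and 2, and ITGAM had 0.0673 to 0.331 RPM in the siLIX1L libraries and 0.202 and 0.437 RPM in control 1 and 2. CD14, CSF1R and ITGAM were thus highest in control 2, as MMP9 was, and PTPRC, CD68 and CD163 were not. The part of leukocyte RNA in the MMP9 values was not tested. MMP11, which unlike most MMPs leaves the cell already active, had 1.28, 1.85 and 0.393 RPM in siLIX1L 1, 2 and 3, against 1.88 and 4.65 RPM in control 1 and 2 (edgeR log2 fold change -1.53, adjusted p = 0.193).

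Per kilobase of transcript, MMP1 made up 81.7, 82.6 and 91.6% of the summed secreted MMP level in siLIX1L 1, 2 and 3, against 82.9% in control 1 and 35.9% in control 2. MMP2 made up 7.001, 7.10 and 1.74% in siLIX1L 1, 2 and 3, against 9.37% in control 1 and 52.0% in control 2. Control 1 thus had the MMP1-rich composition of siLIX1L 1 and 2, and control 2 alone had more MMP2 than MMP1. The ratio of the summed TIMP level to the summed level of all 15 MMPs was 1.39, 1.24 and 0.858 in siLIX1L 1, 2 and 3, against 1.18 in control 1 and 3.29 in control 2, so control 1 lay inside the range of the siLIX1L libraries.

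**Figure D3:**
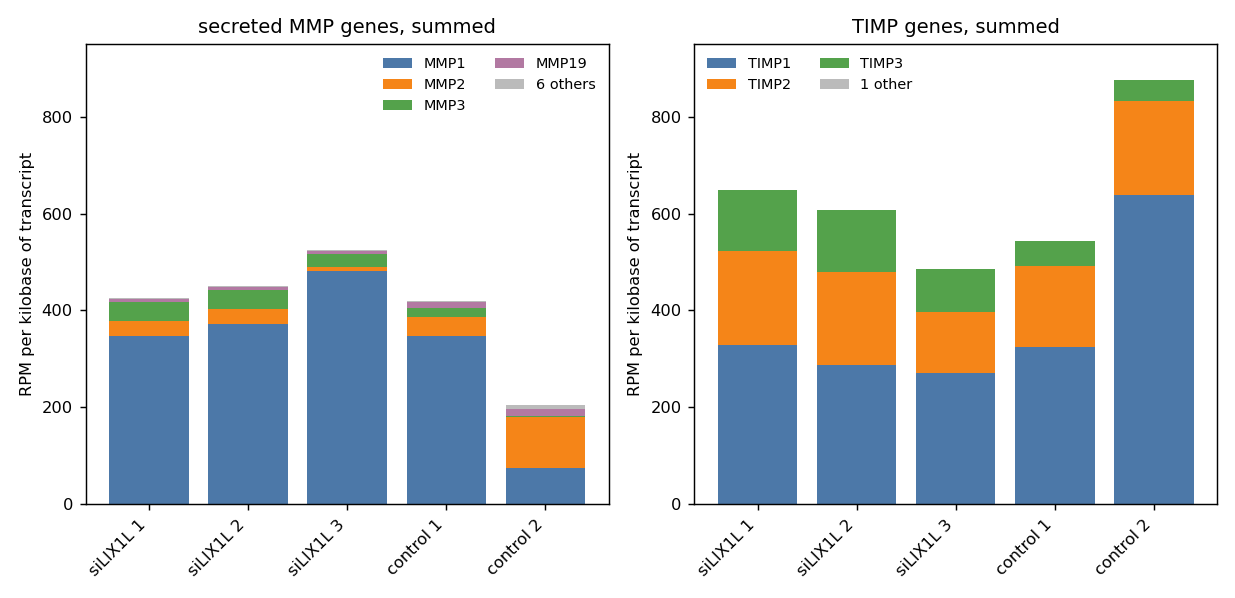
Summed level of the 10 secreted MMPs and of the 4 TIMPs in each library, in RPM per kilobase of the longest coding transcript, stacked by gene from 0. MMP1 fills most of the MMP column in every library except control 2, where MMP2 is 52.0%, and the TIMP3 segment is taller in each siLIX1L library than in either control.

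Of the membrane MMPs, none of the 2 tested by limma and none of the 5 tested by edgeR passed; 0 and 1 had an unadjusted p under 0.05, and DESeq2 called 1, MMP17. MMP14, the main membrane collagenase and the activator of MMP2, was the most abundant of them per kilobase. MMP14 had 95.7, 102 and 95.8 RPM in siLIX1L 1, 2 and 3, against 109 and 159 RPM in control 1 and 2. The siLIX1L libraries lay just below control 1 and further below control 2, at a limma difference of -0.39 (SE 0.19, adjusted p = 0.239; 0.0307 without control 1). MMP17, which is held by a lipid anchor, had 11.8, 9.07 and 11.6 RPM in siLIX1L 1, 2 and 3, against 19.3 and 24.4 RPM in control 1 and 2. Its groups were clearly apart, with a 2.02-fold lower mean in siLIX1L cells, an edgeR log2 fold change of -1.03 that did not pass (adjusted p = 0.0718), and a DESeq2 adjusted p of 0.00989.

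MMP15, a membrane collagenase related to MMP14, had 32.3, 36.5 and 45.3 RPM in siLIX1L 1, 2 and 3, against 9.54 and 31.1 RPM in control 1 and 2. Control 2 was nearly level with siLIX1L 1 and control 1 far below, the reverse of the pattern of MMP1. Its limma difference was 0.56 (SE 0.23, adjusted p = 0.184), with adjusted p = 0.0429 without control 2 and 0.422 without control 1. MMP16, another membrane-spanning MMP, had 20.6, 22.3 and 10.4 RPM in siLIX1L 1, 2 and 3, against 13.7 and 5.58 RPM in control 1 and 2. MMP24, known mainly from the nervous system, had 1.08, 0.530 and 0.505 RPM in siLIX1L 1, 2 and 3, against 0.739 and 0.383 RPM in control 1 and 2. In MMP16 and MMP24 the groups overlapped.

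Of the 3 TIMPs tested, none passed in limma (1 at an unadjusted p under 0.05) and TIMP3 passed in edgeR. TIMP3 (ENSG00000100234, chromosome 22, 32801701 to 32863043, plus strand) is the TIMP that binds to the matrix and that also inhibits ADAM17 and aggrecanases. TIMP3 had 578, 585 and 415 RPM in siLIX1L 1, 2 and 3, against 238 and 198 RPM in control 1 and 2. Every siLIX1L library was above both controls, and siLIX1L 3 was the lowest of the 3. The mean was 526 ± 96.1 RPM in siLIX1L cells (SD, n = 3) and 218 ± 27.7 RPM in control cells (SD, n = 2), a ratio of 2.41, and against control 1 and 2 alone the ratio was 2.22 and 2.65. Limma gave a difference of 1.06 (SE 0.19) at adjusted p = 0.0503, just above the threshold of 0.05, whereas edgeR placed it just below, at a log2 fold change of 1.26 (adjusted p = 0.0494). The edgeR call was lost without control 2 (adjusted p = 0.0654), siLIX1L 1 (0.185), siLIX1L 2 (0.261) or siLIX1L 3 (0.0787) and kept without control 1 (0.0248), and limma passed without control 1 (0.0281). Over 19 alternatives the adjusted p ran from 3.65e-05 to 0.261 and the direction held in each. TIMP3 lies within SYN3 on the other strand, and SYN3 had at most 0.132 RPM in the siLIX1L libraries and 0.269 RPM in control 1.

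TIMP1, which stellate cells release in fibrosis and which inhibits most secreted MMPs, had 361, 315 and 298 RPM in siLIX1L 1, 2 and 3, against 355 and 698 RPM in control 1 and 2. Control 1 lay within the siLIX1L range and control 2 was 1.96-fold control 1, at a limma difference of -0.62 (SE 0.30, adjusted p = 0.241; 0.0214 without control 1 and 0.623 without control 2). TIMP2, which takes part with MMP14 in the activation of MMP2, had 707, 705 and 453 RPM in siLIX1L 1, 2 and 3, against 609 and 711 RPM in control 1 and 2, and the groups overlapped. As a share of the summed TIMP level per kilobase, TIMP3 made up 19.4, 20.9 and 18.6% in siLIX1L 1, 2 and 3, against 9.51 and 4.92% in control 1 and 2. TIMP1 made up 50.8, 47.3 and 55.9% in siLIX1L 1, 2 and 3, against 59.8 and 72.8% in control 1 and 2, so both shares separated the groups while the summed level, 648, 607 and 486 RPM per kilobase in siLIX1L 1, 2 and 3 against 543 and 875 in control 1 and 2, did not.

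Of the ADAMs, none of the 3 tested by limma and none of the 7 tested by edgeR passed; 0 and 3 had an unadjusted p under 0.05, and DESeq2 called 1, ADAM19. Values were above both controls in every siLIX1L library for 4 of the 7, against 22.2% of all genes tested by edgeR. For none were they below, against 21.8%. ADAM19, a sheddase that cuts neuregulin, had 127, 146 and 117 RPM in siLIX1L 1, 2 and 3, against 68.5 and 59.9 RPM in control 1 and 2. The 2 controls were close together and the mean in siLIX1L cells was 2.03-fold higher, with an edgeR log2 fold change of 1.01 that narrowly missed the threshold (adjusted p = 0.0534; 0.0241 without control 1) and a DESeq2 adjusted p of 0.000330. CYFIP2, which overlaps ADAM19 on the other strand, had 13.7, 14.6 and 17.9 RPM in siLIX1L 1, 2 and 3, against 20.1 and 19.5 RPM in control 1 and 2, the other direction.

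ADAM9, a widely expressed sheddase, was the most abundant ADAM, with 702, 723 and 572 RPM in siLIX1L 1, 2 and 3, against 401 and 554 RPM in control 1 and 2. Its lowest siLIX1L value was only just above control 2, at a limma difference of 0.41 (SE 0.18, adjusted p = 0.201). ADAM12, which activated stellate cells are known to express, had 25.8, 28.7 and 35.3 RPM in siLIX1L 1, 2 and 3, against 12.8 and 20.6 RPM in control 1 and 2 (edgeR log2 fold change 0.82, adjusted p = 0.140). ADAM17, the enzyme that releases TNF and EGF receptor ligands, had 40.7, 49.8 and 48.5 RPM in siLIX1L 1, 2 and 3, against 35.1 and 20.9 RPM in control 1 and 2 (edgeR log2 fold change 0.73, adjusted p = 0.136; 0.0267 without control 1). In both, control values came near the lowest siLIX1L library without overlap.

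ADAM10, the sheddase that starts Notch cleavage, had 349, 371 and 242 RPM in siLIX1L 1, 2 and 3, against 169 and 253 RPM in control 1 and 2, and siLIX1L 3 lay between the controls. ADAM15, which carries an integrin-binding motif, had 135, 121 and 143 RPM in siLIX1L 1, 2 and 3, against 136 and 144 RPM in control 1 and 2, the smallest ratio between the controls after ADAMTS13 among the 30 genes. ADAM8, best known from leukocytes, had 4.11, 4.97 and 2.81 RPM in siLIX1L 1, 2 and 3, against 2.49 and 5.79 RPM in control 1 and 2. In these 3 genes the groups overlapped. Summed over the 7 ADAMs, the reads were 1383, 1445 and 1161 RPM in siLIX1L 1, 2 and 3, against 825 and 1058 RPM in control 1 and 2.

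Of the ADAMTSs, ADAMTS1 was the one gene that limma tested and it did not pass, and none of the 9 tested by edgeR passed; 5 had an unadjusted p under 0.05 in edgeR, and DESeq2 called 3. ADAMTS12, which cuts the cartilage protein COMP, was the most abundant per kilobase and had 324, 381 and 210.03 RPM in siLIX1L 1, 2 and 3, against 149.8 and 124 RPM in control 1 and 2. All siLIX1L libraries were above both controls, with a 2.23-fold higher mean, an edgeR log2 fold change of 1.14 (adjusted p = 0.0726) and a DESeq2 adjusted p of 0.00337. ADAMTS1, an enzyme that cuts versican and aggrecan, had 116, 120.2 and 89.996 RPM in siLIX1L 1, 2 and 3, against 82.5 and 53.4 RPM in control 1 and 2, again without overlap. Its limma difference was 0.63 (SE 0.22, adjusted p = 0.140; 0.0360 without control 1).

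The aggrecanase ADAMTS4 and the von Willebrand factor protease ADAMTS13, which stellate cells are known to make in the liver, had lower values in siLIX1L cells. ADAMTS4 had 2.69, 2.05 and 2.69 RPM in siLIX1L 1, 2 and 3, against 6.99 and 5.30 RPM in control 1 and 2 (edgeR log2 fold change -1.31, adjusted p = 0.0716; DESeq2 adjusted p = 0.0136). ADAMTS13 had 5.25, 3.24 and 4.32 RPM in siLIX1L 1, 2 and 3, against 8.40 and 8.14 RPM in control 1 and 2 (edgeR log2 fold change -0.97, adjusted p = 0.110; DESeq2 adjusted p = 0.0568). In both genes the groups were apart and the controls close to each other. REXO4, which overlaps ADAMTS13 on the other strand, had 65.2 to 83.0 RPM in the siLIX1L libraries and 72.1 and 51.2 RPM in control 1 and 2.

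ADAMTS10, which binds fibrillin microfibrils, had 0.808, 0.662 and 0.674 RPM in siLIX1L 1, 2 and 3, against 0.874 and 5.68 RPM in control 1 and 2. ADAMTS7, which like ADAMTS12 cuts COMP, had 17.1, 16.9 and 17.6 RPM in siLIX1L 1, 2 and 3, against 18.0 and 33.4 RPM in control 1 and 2. In both, control 1 was nearly level with the siLIX1L libraries and control 2 alone was high, and neither passed in edgeR (log2 fold change -2.24, adjusted p = 0.119, and -0.61, adjusted p = 0.245); without control 1 both did (0.0138 and 0.0207). DESeq2 called ADAMTS10 (adjusted p = 0.0410). ADAMTS6, a relative of ADAMTS10, had 42.1, 49.2 and 50.4 RPM in siLIX1L 1, 2 and 3, against 55.9 and 19.2 RPM in control 1 and 2. The aggrecanase ADAMTS5 had 3.90, 5.23 and 4.49 RPM in siLIX1L 1, 2 and 3, against 6.39 and 2.90 RPM in control 1 and 2. For ADAMTS6 and ADAMTS5 all siLIX1L values lay between the 2 controls. ADAMTS9, a versican-cutting enzyme, had 0.740, 0.530 and 0.674 RPM in siLIX1L 1, 2 and 3, against 0.471 and 0.601 RPM in control 1 and 2, and its groups overlapped. Summed over the 9 ADAMTSs, the reads were 513, 579 and 381 RPM in siLIX1L 1, 2 and 3, against 329 and 253 RPM in control 1 and 2.

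TIMP3, ADAM19 and ADAMTS12 were the 3 genes that DESeq2 called higher, and each was close to a 2-fold or larger ratio against both controls. The 250 bases before their RefSeq start sites (GRCh38.p14) are shown because these 3 were called higher together. Capitals mark GC boxes (GGGCGG, either strand) and a loose AP-1 motif (TGANTCA with N any base, the same on both strands).
TIMP3, chr22:32801455-32801704, plus strand: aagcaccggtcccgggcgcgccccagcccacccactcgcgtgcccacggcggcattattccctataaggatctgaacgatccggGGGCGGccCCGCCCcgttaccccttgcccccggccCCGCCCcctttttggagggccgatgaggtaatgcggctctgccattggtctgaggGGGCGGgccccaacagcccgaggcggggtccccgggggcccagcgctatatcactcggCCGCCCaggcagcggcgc
ADAM19, chr5:157575776-157576025, minus strand: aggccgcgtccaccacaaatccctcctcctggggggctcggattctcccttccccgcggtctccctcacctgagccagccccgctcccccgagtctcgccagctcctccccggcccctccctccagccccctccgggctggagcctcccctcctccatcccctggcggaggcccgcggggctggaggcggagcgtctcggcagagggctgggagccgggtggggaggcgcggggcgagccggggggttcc
ADAMTS12, chr5:33891991-33892240, minus strand: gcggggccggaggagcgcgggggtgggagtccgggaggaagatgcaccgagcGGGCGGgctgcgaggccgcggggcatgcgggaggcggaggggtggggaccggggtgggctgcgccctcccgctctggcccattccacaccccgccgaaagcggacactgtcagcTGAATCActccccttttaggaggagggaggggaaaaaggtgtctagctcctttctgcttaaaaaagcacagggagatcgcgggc

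The 3 stretches were 72.4, 76.4 and 68.4% G or C, beside a median of 58.0% over 34788 promoters of the same length. A GC box was found at 5 places in TIMP3, at 1 in ADAMTS12 and at 0 in ADAM19, and 42.6% of all promoters hold one. The loose AP-1 motif, with any base in the middle, was found in ADAMTS12 as TGAATCA, starting at -84 from the start site. It was found in 6.59% of all promoters. Promoters were matched for 19 of the 35 genes. Among their 20 promoters 3 held the loose AP-1 motif, in ADAMTS12, MMP7 and MMP10, and 15 held a GC box. The other genes had no matched promoter and were not searched, so a gene not named here need not lack a motif. These matches describe letters in a window, and no binding was measured.

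Between the 2 controls, 11 of the 30 genes differed by more than 2-fold, against 16.5% of all genes tested by edgeR; 6 were higher and 5 lower in control 2, against 7.82% and 8.64%. MMP9 was 7.13-fold and ADAMTS10 6.51-fold higher in control 2, and MMP3 11.1-fold and MMP1 4.71-fold lower. Set against each control alone, the mean of the siLIX1L libraries had the same direction for 25 of the 30 genes and lay between the controls for 5, MMP24, TIMP2, ADAM8, ADAMTS5 and ADAMTS6, against 33.8% of all genes tested. For TIMP3, ADAM19, ADAMTS12, MMP19, MMP17 and ADAMTS13 the ratio to the 2 controls was nearly equal. So it was for genes that differed little from the controls, as ADAM15 (0.979 and 0.925) and TIMP2 (1.02 and 0.874). For MMP9, MMP3, MMP1 and ADAMTS10 the ratio differed by 4.71-fold or more.

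**Figure D4:**
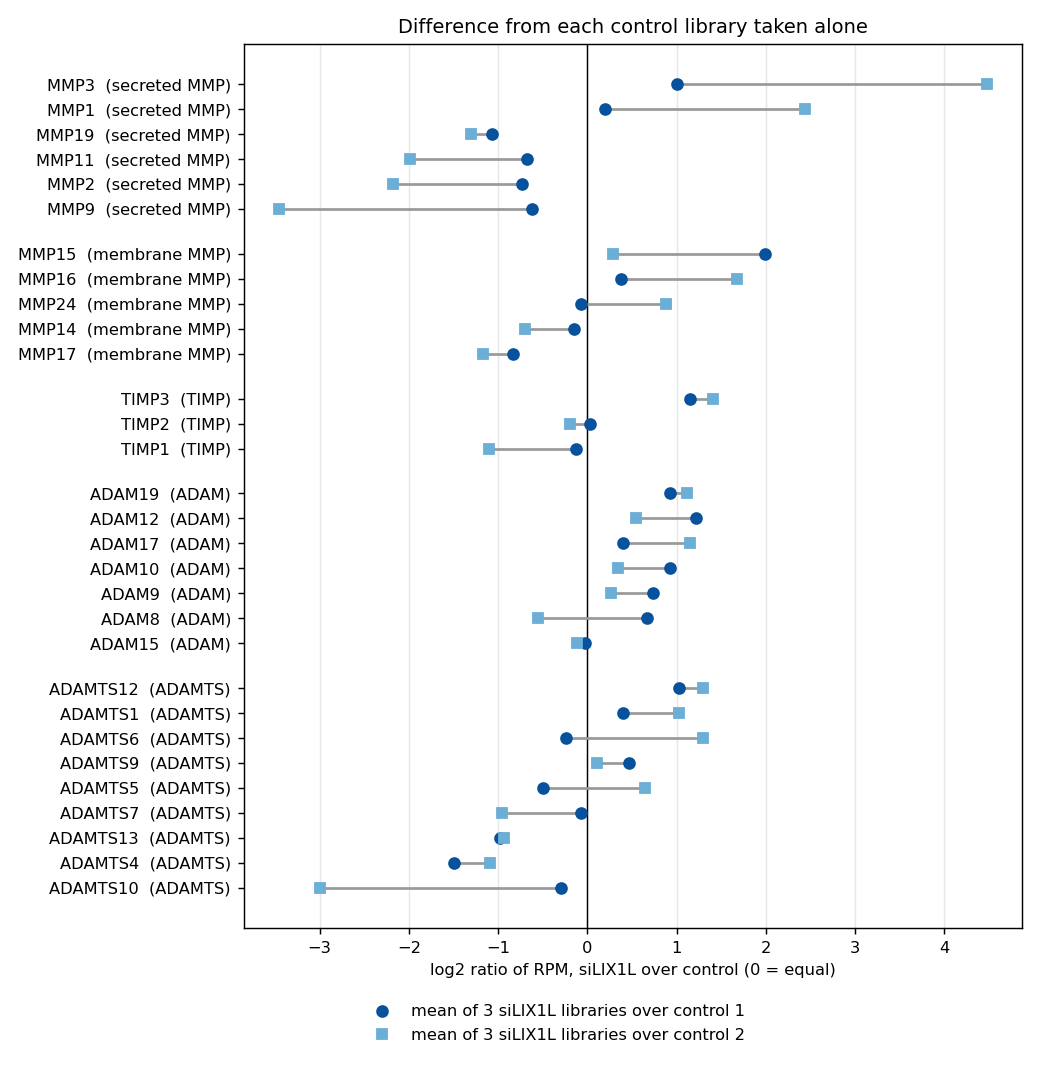
Log2 ratio of the mean RPM of the 3 siLIX1L libraries over control 1 (circles) and over control 2 (squares) for the 30 genes tested by edgeR, grouped by class; 0 is equality and the grey line joins the 2 ratios of a gene. Short lines away from 0, as for TIMP3, ADAM19, ADAMTS12 and MMP19, mark genes with a like difference from both controls, and long lines, as for MMP3 and MMP9, mark genes for which the controls differ.

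Of the other genes of the pathway, 8 lists with 86 genes held other MMPs, ADAMs, ADAMTSs and ADAMTS-like proteins, activators and partners, other inhibitors, shed substrates and proteoglycans. None of the 26 genes tested by limma and none of the 58 tested by edgeR passed. Unadjusted, 10 of the 26 had a p under 0.05 in limma, against 1785 of 6464 genes. In edgeR 17 of the 58 did, against 3395 of 13026. DESeq2 called 2 higher and 5 lower of 78 with a p, against 4.99% and 4.91% of all genes with a p. Both totals again count genes without an adjusted p. Of the 13 AP-1, ETS and RUNX factors that act on MMP promoters, 9 were tested by limma. FOS, FOSB and JUN fell, 3 of the 9, against 1.13% of all genes tested that limma called lower. The median difference over those 9 was -0.59, beside -0.01 over all genes tested. In edgeR, which tested all 13, the same 3 were lower, against 0.883% of all genes tested. The median edgeR log2 fold change of the 13 was -0.20, beside -0.04 over all genes tested. FOS, which pairs with JUN in AP-1, had 2.42, 2.58 and 1.46 RPM in siLIX1L 1, 2 and 3, against 50.6 and 198 RPM in control 1 and 2. JUN had 272, 272 and 321 RPM in siLIX1L 1, 2 and 3, against 579 and 664 RPM in control 1 and 2. FOSB, another FOS relative, had 5.25, 5.83 and 5.33 RPM in siLIX1L 1, 2 and 3, against 31.7 and 82.4 RPM in control 1 and 2. The limma adjusted p was 0.0384 for FOS, 0.0389 for FOSB and 0.0482 for JUN.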

How the data were processed

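The authors deposited FPKM for 19936 human Ensembl genes in each of 5 libraries, and for siLIX1L 3 also the raw read count and the gene length, per the file headers. Bowtie 0.12.2 and mm8, a mouse build at odds with human gene IDs, are named in the submitters' processing notes; the counting tool, annotation and strand setting are not stated there. The lengths were equal to GENCODE 29 gene spans (GRCh38) for 98.2% of 19926 matched genes and for 34 of the 35 genes described. FPKM times length gave whole reads within 0.01 for 100% of values in each library, and in siLIX1L 3 these reads were the same as the deposited counts for all 19936 genes; the limit given for 0 reads is 3 reads and covers counting error only.

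Differences were tested mainly with limma 3.58.1 in R 4.3.3 (trend and robust, two-sided, Benjamini-Hochberg over all genes tested, threshold 0.05) on log2(FPKM + 1), keeping genes at 1 FPKM or more in 2 or more libraries, without covariates. This scale understates the change of low genes. Ratios are of mean RPM, from recovered reads. EdgeR 4.0.16 (quasi-likelihood, TMM, filterByExpr) and DESeq2 1.42.0 were run on the recovered reads, and further settings are given at the end. Limma on FPKM and on RPM, edgeR and DESeq2 were also run on simulated reads with the same spread in all libraries. The recovery of reads and the other settings were not. That simulation does not show how the tests behave at the unequal spread of these libraries. Genes were found by the Ensembl ID of the symbol. Overlapping genes come from GENCODE 29 and promoters from RefSeq. A gene with at least 0.5 RPM in either group has its value in every library; test values are printed for genes past a threshold, for groups without overlap at 2 RPM or more, and for the most abundant gene of each class. The genes, the lists and the tests were chosen with earlier results of these data known.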

Additional observations from a re-analysis of the deposited data

How the results depend on the processing

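The number of genes past the threshold was 121 of 6464 in limma, and it was 188 with edgeR, 1673 with DESeq2, 0 without a minimum level (3407 at an unadjusted p under 0.05 in limma) and 0 with siLIX1L 1 and 2 averaged (976 at an unadjusted p under 0.05). Leaving out 1 library gave 0 to 1650 in limma, with 0 without any 1 siLIX1L library (899 to 1773 at an unadjusted p under 0.05), 1650 without control 1 and 337 without control 2, and 0 to 2926 in edgeR, a setting added after seeing the data (2926 without control 1, 356 without control 2 and 0 without any 1 siLIX1L library, with 1775 to 3313 at an unadjusted p under 0.05). Of the 35 genes, 1 passed in limma, 2 in edgeR, 9 in DESeq2, 2 with a pseudocount of 0.1, and 0 on log2(RPM + 0.5), without a minimum level and with siLIX1L 1 and 2 averaged, where 14, 12 and 4 had an unadjusted p under 0.05 in limma. Leaving out 1 library gave 0 to 8 of them in limma (8 without control 1, 2 without control 2) and 0 to 15 in edgeR (15 without control 1, 1 without control 2). Where 1 control is left, it is assumed to vary like the siLIX1L libraries. Of 275 values of 21 genes under 19 alternatives, none changed direction, 35 gained a call and 11 lost one, all 11 of MMP19, counted against limma where it tested the gene and otherwise against edgeR; the edgeR call of TIMP3, which limma did not make, is therefore not among the losses. With the replicate number as a block, where siLIX1L 3 has a level of its own, 94 genes and 2 of the 35 (MMP3 and TIMP3, each at a limma adjusted p of 0.0469) passed, and MMP19 did not (0.0668); same-numbered libraries did not deviate together (correlation -0.12 and -0.10), so the numbers were not taken as pairs. The cause of these changes was not tested.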
